A study of Caenorhabditis elegans with 2 samples.

Results

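The nuclear hormone receptor genes named with the prefix nhr- were examined for binding by eGFP-tagged CEH-28 in Caenorhabditis elegans. Members were all protein-coding genes of the WBcel235 annotation of Ensembl whose symbol starts with nhr-, which gave 269 of 19973 protein-coding genes. Of these, 167 lay on chromosome V and 102 on the other chromosomes. Binding was measured by chromatin immunoprecipitation and sequencing (ChIP-seq) in whole L4 larvae of mixed sex, strain OP241, genotype unc-119(ed3) III; wgIs241, in 1 group of 2 biological replicates. The insertion wgIs241 carries the tagged ceh-28 gene. The sample labels name the antibody target as ceh-28, whereas the deposited description names eGFP-ceh-28, which is followed here. If the description holds, binding was read from a transgene and not from the untagged protein. The tissues of the larva were not separated, and no second condition, stage or untagged strain was compared. The deposited notes tie the 2 replicates to one common control.

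Nuclear hormone receptors are transcription factors with a zinc finger domain that binds DNA and a domain that can bind a small lipophilic ligand. The nematode family is much larger than that of vertebrates or flies, and most of its members derive from an ancestor related to the vertebrate receptor HNF4. A minority have clear counterparts in other animals, among them regulators of moulting, neuron fate and sterol response, and members such as NHR-49 control fatty acid metabolism. CEH-28 is an NK-2 class homeodomain protein known for its role in the M4 motor neuron of the pharynx.

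A peak summit is the position within a called region where the signal was highest. The 1739 summits that passed the authors' reproducibility threshold (irreproducible discovery rate, IDR) are called thresholded summits below. They were the 1739 with the highest signal among the 20803 summits called on the pooled replicates. The signal is the authors' own value for each peak, and its scale is not stated. Ranks count from the highest signal of a list. A gene's promoter window began 1000 bp before its start and ended 500 bp after it, and a gene body ran from start to end.

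The thresholded list had 12 summits in windows or bodies of 11 members, nhr-119 having both an upstream and an intronic summit. The sequences of 8 of these summits are shown, because together they hold the different kinds of site found: the palindrome ATCGAT, a row of attgat copies with no palindrome, stretches of agagag read on either strand, and a site of NK-2 class proteins. The palindrome was examined because it was already known to be frequent at the summits of these data. Each sequence is 201 bases of the plus strand of WBcel235 (the same assembly as ce11) centred on the summit, read from the RefSeq genome, with ATCGAT in capitals. They lie at chrIV:1619639-1619839 (nhr-92, upstream), chrII:2795505-2795705 (nhr-119, intron), chrX:15707457-15707657 (nhr-48, upstream), chrX:17513614-17513814 (nhr-1, upstream), chrV:494476-494676 (nhr-131, 5' untranslated region), chrII:2800870-2801070 (nhr-119, upstream), chrII:14817101-14817301 (nhr-61, coding exon) and chrIV:2327607-2327807 (nhr-236, intron).
nhr-92 upstream: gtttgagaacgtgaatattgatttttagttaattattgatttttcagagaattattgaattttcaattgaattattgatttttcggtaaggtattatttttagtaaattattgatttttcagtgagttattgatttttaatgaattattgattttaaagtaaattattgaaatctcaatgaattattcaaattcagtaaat
nhr-119 intron: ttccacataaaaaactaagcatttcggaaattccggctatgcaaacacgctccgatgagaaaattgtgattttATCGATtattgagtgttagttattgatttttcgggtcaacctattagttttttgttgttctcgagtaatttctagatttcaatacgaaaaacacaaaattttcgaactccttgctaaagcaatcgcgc
nhr-48 upstream: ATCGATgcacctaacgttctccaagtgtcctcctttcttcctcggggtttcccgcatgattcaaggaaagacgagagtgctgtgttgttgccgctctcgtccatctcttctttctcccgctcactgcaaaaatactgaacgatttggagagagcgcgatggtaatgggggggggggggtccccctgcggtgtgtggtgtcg
nhr-1 upstream: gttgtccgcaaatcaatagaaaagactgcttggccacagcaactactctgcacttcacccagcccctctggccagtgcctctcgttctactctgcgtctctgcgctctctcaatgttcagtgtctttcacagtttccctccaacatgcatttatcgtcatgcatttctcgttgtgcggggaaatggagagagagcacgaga
nhr-131 5' UTR: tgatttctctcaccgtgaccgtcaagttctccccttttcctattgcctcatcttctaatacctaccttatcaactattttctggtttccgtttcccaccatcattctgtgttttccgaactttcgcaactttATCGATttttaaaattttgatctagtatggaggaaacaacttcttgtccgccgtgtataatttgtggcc
nhr-119 upstream: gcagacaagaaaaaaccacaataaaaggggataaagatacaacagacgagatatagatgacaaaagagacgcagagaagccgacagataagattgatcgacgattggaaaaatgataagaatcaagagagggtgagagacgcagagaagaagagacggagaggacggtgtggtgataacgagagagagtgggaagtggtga
nhr-61 coding exon: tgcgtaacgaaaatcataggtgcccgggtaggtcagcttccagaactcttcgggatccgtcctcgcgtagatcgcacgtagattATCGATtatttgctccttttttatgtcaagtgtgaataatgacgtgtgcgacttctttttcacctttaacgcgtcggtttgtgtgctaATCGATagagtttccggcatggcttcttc
nhr-236 intron: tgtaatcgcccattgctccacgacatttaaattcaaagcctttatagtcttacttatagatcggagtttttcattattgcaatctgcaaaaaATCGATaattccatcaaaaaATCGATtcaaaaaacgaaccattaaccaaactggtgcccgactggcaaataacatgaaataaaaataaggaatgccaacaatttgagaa
The nhr-92 window held 6 copies of ATTGAT (either strand) and no ATCGAT. The nhr-61 and nhr-236 windows held ATCGAT at 2 places each, nhr-61 with 1 TCAAGTG as well, and the windows in the nhr-119 intron, at nhr-48 and at nhr-131 held it at 1 place each. At nhr-48 the copy lay at the outer edge of the window, 100 bp from the summit. The windows upstream of nhr-1 and nhr-119 held no ATCGAT, 1 ATTGAT and 3 copies of AGAGAG (either strand) each.

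The summits with the highest signal at members lay upstream of nhr-92 and nhr-49. At nhr-92 (gene IV:1620094-1623753, plus strand) the summit at position 1619739 lay 355 bp upstream of the start. Its signal was 274 in the pooled replicates (rank 156 of 20803), 193 in replicate 1 (rank 171 of 23410) and 72.3 in replicate 2 (rank 168 of 26414). The peak thus stood at nearly the same rank in both replicates. nhr-49, the HNF4-related regulator of fatty acid desaturation and beta-oxidation, lies at I:9869651-9874680 on the plus strand, and its summit lay 354 bp upstream of the start. Its signal was 248 in the pooled replicates (rank 187), 197 in replicate 1 (rank 162) and 49.9 in replicate 2 (rank 318). Its 201-base window held 1 ATCGAT and 2 AGAGAG.

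On the X chromosome, nhr-48 and nhr-1 each had a thresholded summit upstream. nhr-48, related to the nematode steroid receptor gene daf-12 and to nhr-8, had its summit 656 bp upstream with signals of 102 in the pooled replicates (rank 720), 86.1 in replicate 1 (rank 615) and 29.7 in replicate 2 (rank 725). At nhr-1 the summit lay 349 bp upstream, with signals of 90.2 (pooled, rank 865), 62.5 (replicate 1, rank 969) and 28.8 (replicate 2, rank 763). Both peaks stood within the first 1000 of each list. The GC content of the windows was 55.2% at nhr-48 and 50.7% at nhr-1, the highest of the 12 member summits. It was 46.3% at nhr-61, 44.8% at nhr-49 and 18.9% at nhr-92, the lowest.

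nhr-119 on chromosome II was the sole member with more than 1 thresholded summit. The intronic summit, 4995 bp downstream of the start, had the higher signal, 143 in the pooled replicates (rank 457), 109 in replicate 1 (rank 444) and 35.5 in replicate 2 (rank 542). The upstream summit, 370 bp from the start, had 64.4 in the pooled replicates (rank 1415), 47.3 in replicate 1 (rank 1473) and 16.9 in replicate 2 (rank 1879). The upstream one was therefore outside the first 1739 of replicate 2, and the intronic one inside them in each list.

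Of the 167 members on chromosome V, nhr-131 and nhr-95 had a thresholded summit. The nhr-131 summit lay 206 bp downstream of the start in the 5' untranslated region, inside both the promoter window and the gene body, with signals of 84.8 (pooled, rank 936), 64.5 (replicate 1, rank 922) and 20.03 (replicate 2, rank 1362). The nhr-95 summit lay in an intron 5615 bp downstream of the start, with signals of 123 (pooled, rank 563), 86.8 (replicate 1, rank 605) and 32.7 (replicate 2, rank 626). The nhr-95 window held 1 ATCGAT and 1 ATTGAT.

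The other 4 thresholded summits lay inside genes and close to the lower end of the list, whose lowest signal was 56.5. nhr-61 on chromosome II had a summit in a coding exon 1342 bp downstream of its start, with signals of 63.9 (pooled), 45.4 (replicate 1) and 21.9 (replicate 2). Its window held the 1 NK-2 site found at any of the 12 summits. nhr-236 on chromosome IV had an intronic summit 1933 bp downstream with 62.8 (pooled), 48.1 (replicate 1) and 14.6 (replicate 2). nhr-64, an HNF4-related receptor on chromosome I, had an intronic summit 561 bp downstream with 60.2 (pooled), 44.1 (replicate 1) and 15.3 (replicate 2).

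nhr-41, the counterpart of the vertebrate testicular receptors TR2 and TR4, differed most between the replicates. Its intronic summit, 12681 bp downstream of its start on chromosome IV, had a signal of 63.5 in the pooled replicates (rank 1451). It had 54.7 in replicate 1 (rank 1175) and 7.54 in replicate 2 (rank 11146). The nearest gene start was that of spp-31, at 7671 bp.

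**Figure D1:**
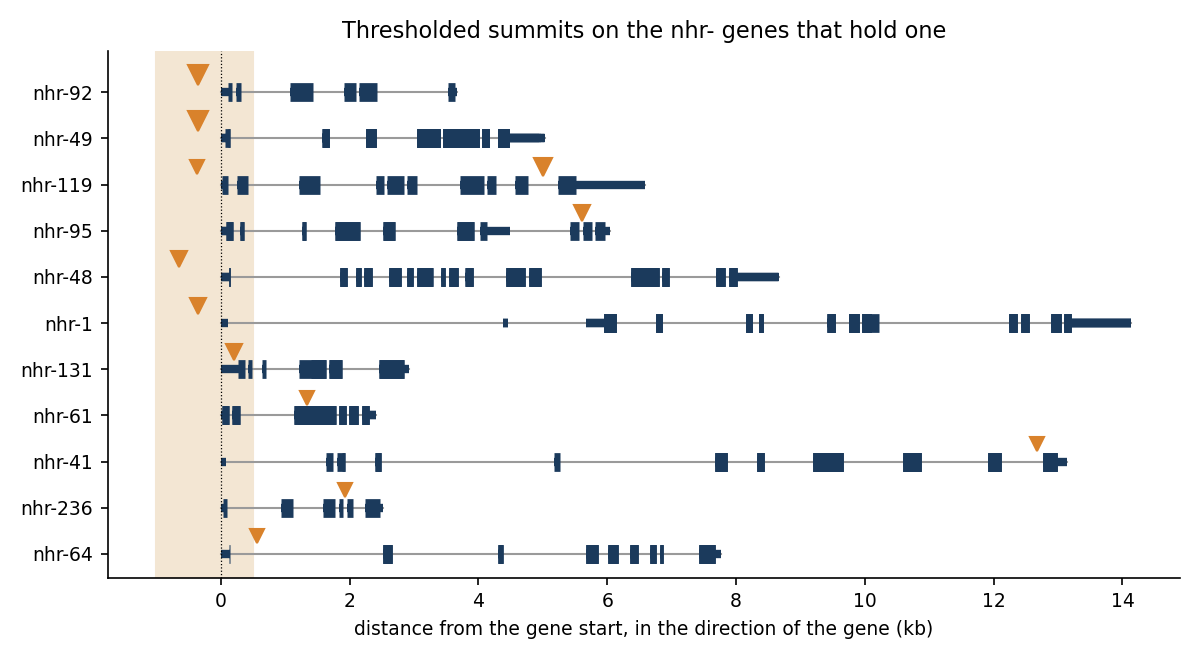
Thresholded summits along the members that have one, with distance from the gene start on the horizontal axis (kb, positive downstream), exons as boxes, the promoter window shaded and summits as triangles that grow with pooled signal. Upstream summits lie 349 to 656 bp from the start, and those inside genes lie 206 to 12681 bp downstream.

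Across the 12 summits, replicate 1 had the higher signal at each, with a median ratio of replicate 1 to replicate 2 of 2.89 and a range of 2.07 (nhr-61) to 7.25 (nhr-41). All 12 were within the first 1739 of replicate 1 and 8 were within the first 1739 of replicate 2. Their median pooled signal was 87.5, beside 89.8 for all thresholded summits, whose signals reached 2314. Thus 6 of the 12 stood at or above the median of the list. The ratio and the ranks in each replicate were not counted over all 1739 thresholded summits. They are therefore not shown to be particular to members. Neither the scale of the signals nor the number of reads is given, so the ratio is a description of the 2 lists and the difference in level between replicates was not tested.

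**Figure D2:**
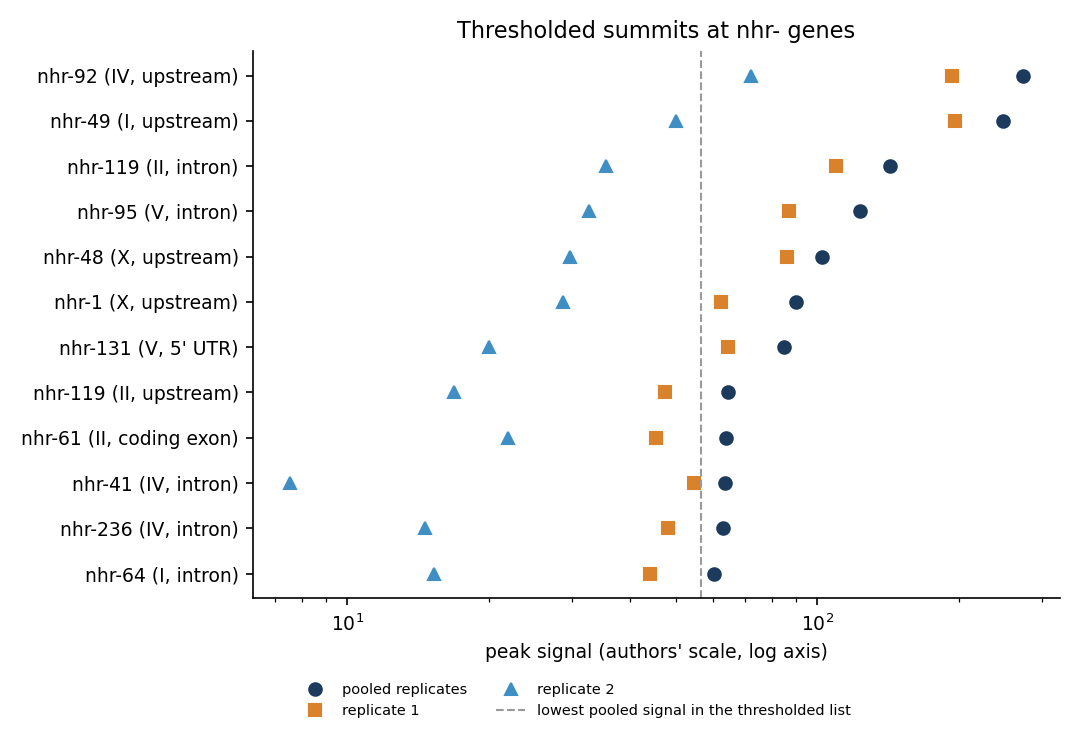
Peak signal (authors' scale, log axis) of the 12 thresholded summits at members, with a circle for the pooled replicates, a square for replicate 1 and a triangle for replicate 2; the dashed line is the lowest thresholded signal, 56.5. Replicate 2 is lowest at each summit, and nhr-41 has the widest gap, 54.7 against 7.54.

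A thresholded summit lay in the promoter window of 6 of 269 members (2.23%, 95% exact binomial interval 0.823 to 4.79), beside 3.85% of all protein-coding genes. These were nhr-1, nhr-48, nhr-49, nhr-92, nhr-119 and nhr-131. Outside chromosome V the count was 5 of 102 (4.90%, interval 1.61 to 11.1), beside 4.63% of all genes there. On chromosome V it was 1 of 167 (0.599%, interval 0.0152 to 3.29), beside 1.5%, and 2 when the first 1739 summits of replicate 2 alone were used (nhr-131 and nhr-42). Chromosome V held 167 of the 269 members, and few genes of any kind there had such a summit. Its part in the lower share over the whole family was not tested. If members had the share of the other genes of their own chromosome, 7.09 of the 269 would have one. Intervals on shares cover counting error only, take genes as independent, and are no test. No test was made here, since members are features of 1 group and not replicates.

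By chromosome the counts were small, 2 of 23 members on X (8.70%, beside 3.88% of all genes there), 1 of 15 on II (6.67%, beside 2.84%), 1 of 23 on I (4.35%, beside 6.78%) and 1 of 33 on IV (3.03%, beside 3.32%). On III it was 0 of 8 members (exact interval up to 36.9%; 3 counts, the limit used here for a count of 0, would be 37.5%), beside 7.01% of all genes there. With 0 to 2 members per chromosome these shares could not be ordered.

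**Figure D3:**
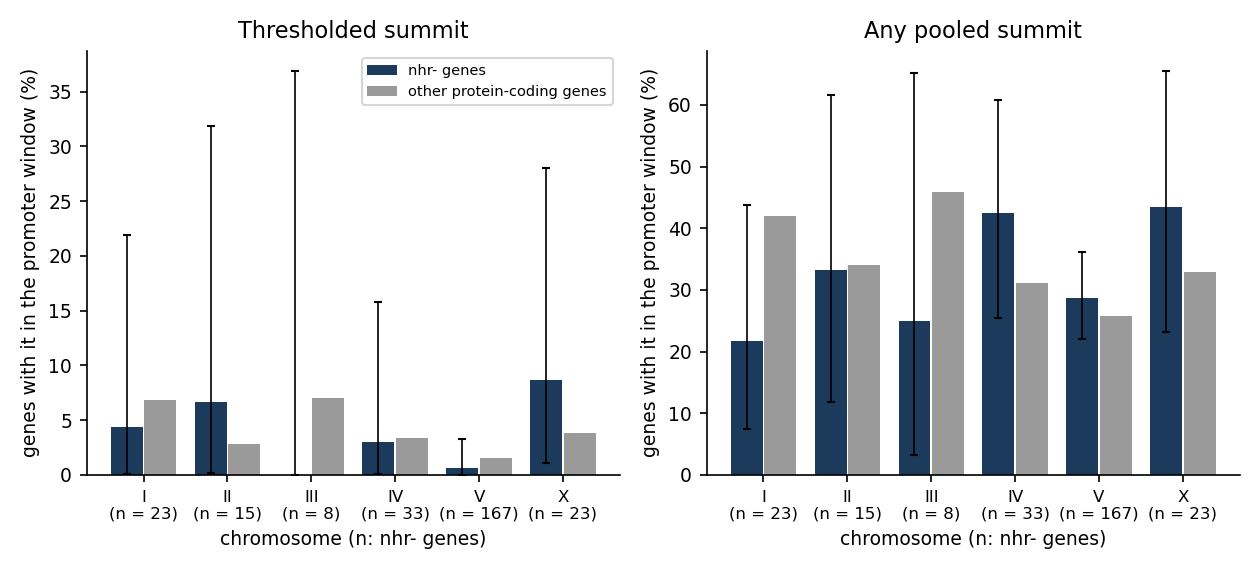
Percent of genes with a summit in the promoter window, by chromosome, for members and for other protein-coding genes, with 95% exact binomial intervals on the members. The member intervals overlap the value of the other genes on each chromosome for thresholded summits, and chromosome V has the lowest share of other genes for both kinds of summit.

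Thresholded summits were also counted in gene bodies. One lay in the body of 7 members (2.60%, interval 1.05 to 5.29), beside 3.71% of all genes. Outside chromosome V it was 5 of 102 (4.90%, beside 4.39%), and on chromosome V 2 of 167 (1.20%, beside 1.66%). With the first 1739 summits of replicate 2 alone, 9 members had one in the body (3.35%, beside 3.69% of other genes), and nhr-41, nhr-236 and nhr-64 were not among them. Of the summits at or above the median signal, 1 of 102 members outside chromosome V had one in the body (0.980%, beside 2.40% of other genes). In the window it was 4 of 102 (3.92%, beside 1.79%). Both shares rest on few members. Counting window or body together, 11 members had a thresholded summit (4.09%, interval 2.06 to 7.2), beside 6.43% of all genes. The shares of the other genes, weighted by chromosome, would give 12.2 members. The median distance from a member start to the nearest thresholded summit was 68827 bp, beside 36475 bp for other genes. It was 106609 bp on chromosome V (81415 bp for other genes there) and 32443 bp elsewhere (28750 bp for other genes).

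**Figure D4:**
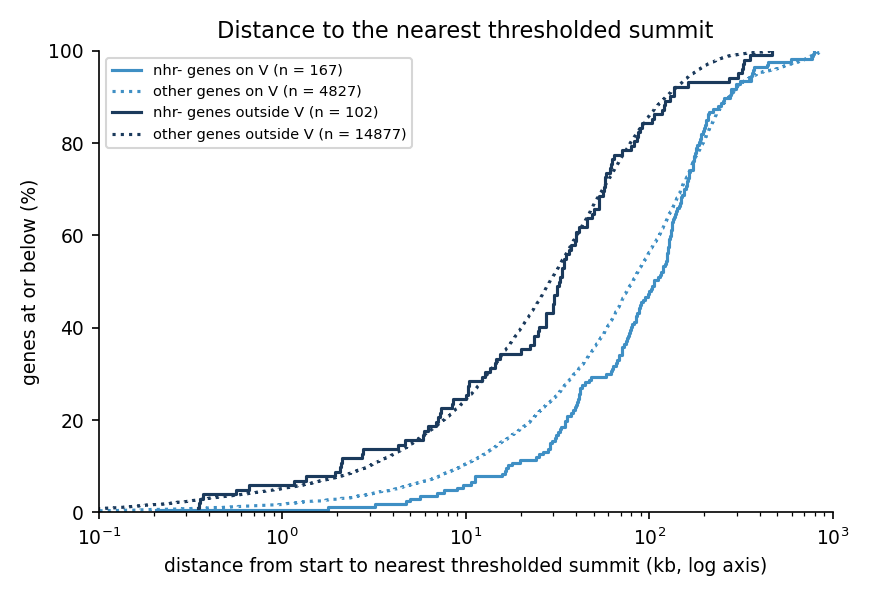
Cumulative percent of genes by distance from the gene start to the nearest thresholded summit (kb, log axis), for members and other genes on chromosome V and elsewhere. The chromosome V curves lie to the right of the others for members and other genes alike, with medians of 106609 and 81415 bp.

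Weaker summits were much more widespread. A summit of the pooled list lay in the window of 84 members (31.2%, interval 25.7 to 37.1), beside 34.1% of all genes. It was 36 of 102 outside chromosome V (35.3%, beside 36.8%) and 48 of 167 on chromosome V (28.7%, beside 25.9%). The count of 84 also fell near that of the other genes, weighted by chromosome, which would give 79.3. Single chromosomes differed in both directions. The share was lower on I (5 of 23, 21.7%, beside 41.8% of all genes there) and III (2 of 8, 25%, beside 45.9%). It was higher on IV (14 of 33, 42.4%, beside 31.2%) and X (10 of 23, 43.5%, beside 33%). On II it was 5 of 15 (33.3%, beside 34.1%). These differences were not tested. The highest pooled signal in windows with a pooled summit had a median of 21.6 for members and 22.2 for other genes. The 105 pooled summits in member windows lay within 500 bp upstream of the start in 54 cases (51.4%), beside 44.3% for other genes. No pooled summit was shared by the windows of 2 members.

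On chromosome V, members in the middle of 3 equal parts of the chromosome had a pooled summit in the window in 18 of 41 cases (43.9%), beside 30.1% of other genes there. In the outer parts it was 30 of 126 (23.8%), beside 23.3%. Other counts in the middle part of chromosome V went the other way. A pooled summit lay in the body of 9 of 41 members (22%, beside 26.6%), and a thresholded one in the window of 0 of 41 (beside 1.37%). Outside chromosome V, a pooled summit lay in the window of 13 of 31 members in the middle parts (41.9%, beside 37.7%). In the outer parts there it was 23 of 71 (32.4%, beside 36.3%). Members on chromosome V stood close together, with a median of 3200 bp to the nearest other member start and 103 of 167 within 5000 bp, so neighbouring windows are not independent. Elsewhere the median was 34456 bp.

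A pooled summit lay in the gene body of 89 members (33.1%, beside 34.6% of all genes). Outside chromosome V it was 50 of 102 (49%, interval 39 to 59.1), beside 37.5% of other genes there, and on X 15 of 23 (65.2%), beside 34.5%. Members were longer there, with a median of 3144 bp outside chromosome V beside 2155 bp for other genes. Counted per kilobase of gene, members outside chromosome V had 0.264 pooled summits and other genes 0.214. On X it was 0.246 and 0.181. Leaving out nhr-27, the longest member at 102756 bp with 12 pooled summits, the density was 0.300 outside chromosome V and 0.369 on X. On chromosome V it was lower at members, 0.126, than at other genes, 0.172. Thresholded summits went the other way outside chromosome V, with 9.76 per megabase of member gene (5 summits) and 19.2 per megabase of other genes, and 12.2 at members without nhr-27. Over all chromosomes it was 7.56 (7 summits) and 17.3. The part of gene length in the count of members was not tested.

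Among members without a thresholded summit in the promoter window, the highest pooled signals within that window were at nhr-90, nhr-8, nhr-162, nhr-57 and nhr-143. nhr-90, on chromosome V, had 52.4 (rank 1959) in the pooled replicates, 37.4 in replicate 1 and 13.8 in replicate 2, at a summit 10 bp downstream of the start. nhr-8, which takes part in the response to sterols and foreign compounds, had 50.3 (rank 2068), 32.8 and 15.97 at a summit 48 bp upstream. The lowest thresholded signal at a member was 60.2, in the body of nhr-64, and the highest member summits below the threshold lay in the bodies of nhr-3 (55.3, rank 1800), nhr-181 (54.2, rank 1849) and nhr-31 (52.4, rank 1958), just ahead of nhr-90. nhr-162, nhr-57 (known as induced in low oxygen) and nhr-143, all on chromosome V, had pooled signals of 47.1, 44.96 and 44.7, with 28.5, 32.0 and 25.6 in replicate 1 and 15.5, 16.1 and 16.6 in replicate 2. All 5 carried the highest −log10 q of the pooled list, 3.76, a value shared by 2882 pooled summits.

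The replicate lists gave the same number of members with a summit in the window, 96 each (35.7%), beside 36.9% of other genes in replicate 1 and 38.7% in replicate 2. Of these, 61 members had one in both, which is 63.5% of each list. For other genes it was 65.2% of those of replicate 1 and 62.1% of those of replicate 2. Where both replicates had one, replicate 1 had the higher signal in 57 of 61, with a median ratio of 1.99 (range 0.694 to 4.32) beside 2.08 for other genes. Across the 61 members the Spearman correlation of the highest signals was 0.44, and across the 4741 other genes 0.60. This describes genes that share both libraries and the control, and genes are not independent replicates. No summit in any of the 3 lists lay in the window of 138 of 269 members, beside 9370 of 19704 other genes.

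**Figure D5:**
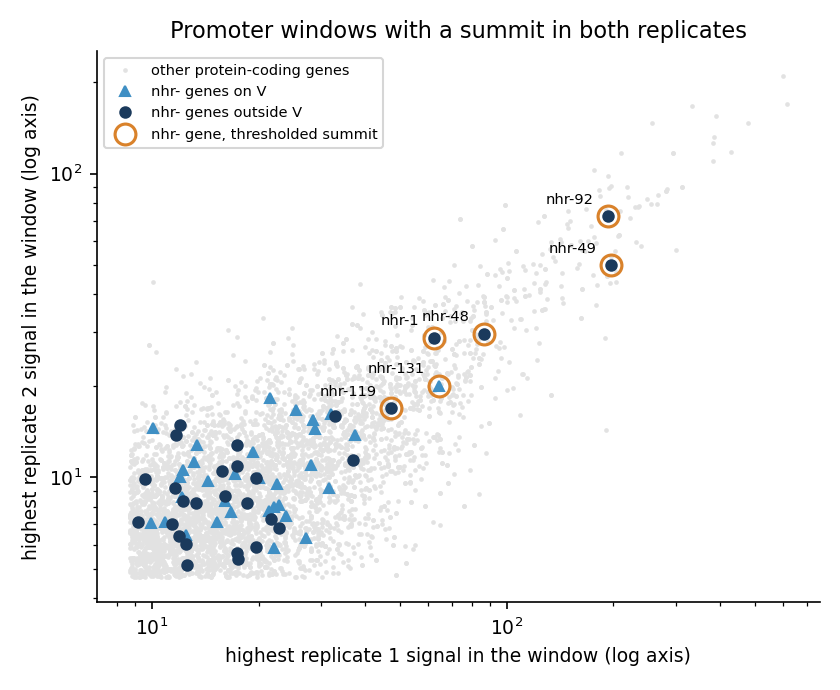
Highest peak signal in the promoter window in replicate 1 (horizontal) and replicate 2 (vertical), both log axes on the authors' scale, for the 61 members with a summit in both and for the other genes. Rings mark members with a thresholded summit in the window; replicate 1 is the higher in 57 of 61 members, and nhr-92 and nhr-49 stand highest in both.

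At the 12 thresholded summits of members, ATCGAT lay within 100 bp of 9 (75%, Wilson interval 46.8 to 91.1), beside 76.1% of all 1739. In windows centred 1000 bp to either side of the member summits it lay in 2 to the left and 1 to the right, and 17.2% and 17.7% of all thresholded summits had it on the left and right. All 7 summits inside genes had it (interval 64.6 to 100), and the share over all thresholded summits inside genes was not counted. The nhr-131 summit counts among these 7 and also among the 6 in promoter windows. Of those 6, 3 had ATCGAT (interval 18.8 to 81.2), beside 68.8% of all thresholded summits in promoter windows. Those of nhr-48 and nhr-1 lay on X, where 47.2% of all thresholded summits had it. The summits without it were those upstream of nhr-92, nhr-1 and nhr-119. AGAGAG lay at 5 of the 12 (beside 20.9% of all thresholded summits) and at 4 of the 6 in windows (beside 27.7%). On X it lay at 37.4% of all thresholded summits. A site of NK-2 proteins (TTAAGTG or TCAAGTG) lay at 1 of the 12, that in nhr-61, beside 2.82% of all thresholded summits. A match is a description and not shown binding.

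The run of ATTGAT at nhr-92 was noticed after the sequences were seen. At least 4 copies within 100 bp occurred at 1 of the 12 member summits, nhr-92 with 6, and at 101 of all 1739 (5.81%), but at 0.241% of the weaker pooled summits. ATTGAT occurred at 6 of the 12, beside 57.3% of all thresholded summits and 34.9% of the weaker ones. In the windows centred 1000 bp to the left and right, ATTGAT lay at 16.7% and 25% of the 12, beside 23.3% and 23.8% of all thresholded summits. Either ATTGAT or ATCGAT lay at 12 of 12, beside 90.2% of all thresholded summits and 52.4% of the weaker ones. Both sites were chosen from summits of these data, so the 12 of 12 is no independent finding.

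Over the 1501-bp promoter windows, ATCGAT was found in 85 of 269 members (31.6%) and in 41% of other genes. Outside chromosome V it was 28.4% beside 42.7%, and on chromosome V 33.5% beside 36.1%. Members with ATCGAT had a thresholded summit in 5 of 85 cases (5.88%) and those without in 1 of 184 (0.543%), beside 7.89% and 1.07% in other genes. Outside chromosome V it was 4 of 29 (13.8%) and 1 of 73 (1.37%), beside 9% and 1.37% in other genes. For pooled summits over all chromosomes it was 47.1% with and 23.9% without, beside 50% and 23%. At nhr-92 and nhr-119, counted among members with ATCGAT, the copy lay elsewhere in the promoter window and not within 100 bp of the thresholded summit. ATCGAT was chosen because it was frequent at the summits of these data, so the higher shares with it are no independent finding. At the weaker pooled summits of members ATCGAT lay within 100 bp of 55 of 249 (22.1%), beside 26.1% of all weaker summits. The 2 parts of the family went opposite ways. On chromosome V it was 27 of 87 (31%, beside 25.9% of all weaker summits there), and elsewhere 28 of 162 (17.3%, beside 26.2%).

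Among 12 receptors with counterparts in vertebrates or flies, nhr-48 had a thresholded summit in its window (1 of 12, beside 3.85% of all genes) and nhr-41 and nhr-64 had one in their bodies (2 of 12, beside 3.71%). Both bodies are long, 13139 bp at nhr-41 and 7771 bp at nhr-64, beside a median of 2020.5 bp for genes outside the family. The part of length in this count was not tested. A pooled summit lay in the window of 5 of 12 (beside 34.1% of all genes), namely nhr-48, nhr-8, nhr-23, nhr-25 and nhr-69. nhr-23, the counterpart of fly DHR3 required for moulting, had a pooled signal of 19.5, and nhr-25, that of fly Ftz-F1, had 18.5. nhr-69, related to HNF4, had 15.9. These 3 stood far below the thresholded range. nhr-111 and nhr-67, the latter related to fly tailless, had no pooled summit in window or body.

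Of 15 receptors of metabolism, nutrition and detoxification, nhr-49 had a thresholded summit in the window (1 of 15, beside 3.85% of all genes) and 8 had a pooled one (beside 34.1%). Beside nhr-49, the signals were 32.2 for nhr-86, 27.6 for nhr-80 (which acts with nhr-49 on fatty acid desaturases), 19.3 for nhr-14, 17.2 for nhr-114 and 16.04 for nhr-62. nhr-49 therefore stood far above the next receptor on the list. The fatty acid genes that NHR-49 controls had a thresholded summit in window or body in 0 of 7 cases, a number too small to set apart from the 6.43% of all genes. In their windows the pooled signal was 48.7 at acs-2, an acyl-CoA synthetase, 29.0 at fat-6, a stearoyl-CoA desaturase, and 26.6 at icl-1, a glyoxylate cycle enzyme.

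Genes that work with the receptors gave a mixed picture. Of 5 nuclear receptors with other symbols, daf-12, the dafachronic acid receptor, had a thresholded summit in its body (pooled signal 184). That was 1 of 5, beside 3.71% of all genes, and the body of daf-12 is long (X:10635908-10666875). None of the 5 had a pooled summit in its window, beside 34.1% of all genes. Of 4 coregulators, cbp-1, a histone acetyltransferase, had a thresholded summit in its window (61.0 pooled, 52.5 in replicate 1, 21.4 in replicate 2), and din-1, a corepressor of DAF-12, had one in its body (56.8). Each count was 1 of 4, beside 3.85% of all genes for the window and 3.71% for the body, and the body of din-1 is long too (II:11614770-11633609). mdt-15, a Mediator subunit that acts with NHR-49, had a pooled signal of 16.1 in its window. Of 6 genes of dafachronic acid synthesis, hsd-1 had a thresholded summit in its window (1 of 6, beside 3.85% of all genes). Its signal was 246 in the pooled replicates, 203 in replicate 1 and 43.9 in replicate 2. That is close to the signal at nhr-49. dhs-16 had a pooled signal of 19.5 and emb-8 of 13.4. A pooled summit lay in the window of 3 of the 6, beside 34.1% of all genes.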

How the data were processed

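ChIP-seq of eGFP-tagged CEH-28 was deposited for 2 biological replicates of 1 group. The lists were called for each replicate and for the pooled replicates, and 1 list was thresholded by IDR, per the deposited notes on how the files were made. The aligner and caller, with their versions, were not given in sources used here. The deposited lists hold a signal per peak (scale not stated) and −log10 q values from the authors. No read numbers are given, so the depth is unknown.

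The ce11 lists were joined to Ensembl genes on WBcel235. The 4 lists on ce10 were not used. Summits were assigned to windows and bodies of all protein-coding genes, and sites were counted on both strands. Intervals are 95% exact binomial for genes and Wilson for summits. No tests were made. Members, gene lists and ATCGAT were chosen with earlier results of these data known. Named are members with thresholded summits, the 5 others with the highest signal in the promoter window, up to 6 per receptor list and up to 3 per other list, by signal. Exceptions chosen after values were seen are nhr-27, nhr-111, nhr-67, nhr-42, and nhr-3, nhr-181 and nhr-31 for their bodies. The counting was tested on simulated data. Alternatives covered windows, thresholds, start choice and each replicate alone. Scripts ran in Python 3.11.15 with pandas 2.3.3, scipy 1.17.1, numpy 2.4.6 and, for figures, matplotlib 3.10.9.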

Additional observations from a re-analysis of the deposited data

How the results depend on the processing

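No paired analysis was possible because all samples belong to 1 group. Of 40 alternative values, 31 stayed within 1.5 times the reported count or median, or within the interval of a share. Assigning each thresholded summit to the nearest start within 2000 bp gave 10 members with one (3.72%, beside 4.5% of other genes), 8 of them outside chromosome V (7.84%, beside 5.33%) and 2 on it (1.2%, beside 1.95%). A window reaching 2000 bp upstream also gave 2 on chromosome V (1.2%, beside 2.24%). With the summits at or above the median signal alone, 0 members on chromosome V had one in the window (beside 0.601% of other genes), 2 members had one in the body (0.743%, beside 2.02%), and the median distance was 156569 bp (beside 90187 bp). The pooled summits at or above the median signal of their list gave 52 members with a summit in the window (19.3%, beside 21.1%). The median limits leave fewer summits by construction, and for the other settings the cause was not tested.

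Without replicate 1 or 2, the count on chromosome V ranged from 1 to 2. Without replicate 1, the window count stayed at 6, of which 5 were the same genes, nhr-42 taking the place of nhr-119. The body count was then 9 (3.35%, beside 3.69%), with 4 of the 7 kept, and nhr-41, nhr-236 and nhr-64 lost. The unknown number of reads limits what the absence of a summit shows.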
